A study of Homo sapiens with 2 samples.

Results

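The peaks described here lie on the long arm of chromosome 7 (7q) and come from a list of SOX4 binding regions in LN229, an established human glioblastoma cell line. A peak was counted as a 7q peak when its midpoint lay above position 63100000 of chromosome 7 of the human genome build hg19, whatever its score. This gave 194 of the 4201 peaks in the list (4.62%, exact Clopper-Pearson 95% interval 4.003 to 5.30%), or 24.7% of the 784 peaks on chromosome 7. The boundary leaves out the 167 peaks between it and 58 Mb, around the centromere. The last peak below it, at chr7:62981197-62982232, scored 89.7, and the first above it, at chr7:63279864-63280455, scored 69.2.

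The study mapped binding by chromatin immunoprecipitation and sequencing (ChIP-seq) with 1 library per condition. In one, LN229 cells had been transfected with a plasmid for SOX4 that carries a Flag and an HA tag. In the other, the negative control, the plasmid encoded GFP with the same tags. The same anti-Flag antibody was used for both, so the factor was captured through its tag on an introduced protein and the cell's own SOX4 was not the target. Only the SOX4 library has a peak list here, so SOX4 and GFP cells cannot be compared at any peak, and replicate error cannot be given for any value. How deeply the libraries were sequenced is unknown. The score is the authors' own value for each peak, with no stated scale, and was used only to rank and filter peaks within the list. The design text calls the cells prostate cells, whereas the title and labels call them glioblastoma cells, and the latter were followed.

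SOX4 belongs to the SOX family of transcription factors, which hold DNA through an HMG box, a domain that sits in the minor groove and bends the helix. It is known for its part in embryonic development and in keeping glioma cells in an immature state. In a ChIP-seq experiment, a bound site gives a pile of sequenced fragments over a short stretch, and a peak caller such as MACS marks the stretch and scores it. The human long arm of chromosome 7 is known for low-copy repeats, long segments present in several near-identical copies. Some of them lie within the 7q11.23 band and flank the segment that is lost, by recombination between copies, in the Williams-Beuren deletion. Reads from such copies are hard to place on one of them.

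Most 7q peaks were weak and short beside the whole list, as were most peaks of the short arm (7p, below 58 Mb). Their scores ran from 50.2, at the lower end of the list, to 1071, with a median of 56.3 (quartiles 52.6 and 67.5). The median of the whole list was 79.1, and 30 of the 194 (15.5%) reached it. Scores under 60 made up 124 peaks (63.9%, exact 95% interval 56.7 to 70.7%), against 32.4% of the whole list. Only 18 peaks scored 100 or more (9.28%, 5.59 to 14.3%), against 39.7% of the whole list. No 7q peak reached a score of 3100, and the highest score of the whole list was 3221. On 7p the median score was 58.3, with 57.2% of peaks under 60 and 8.98% at 100 or more. On chromosome 20 these values were 61.4, 48.9% and 22.5%.

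**Figure D1:**
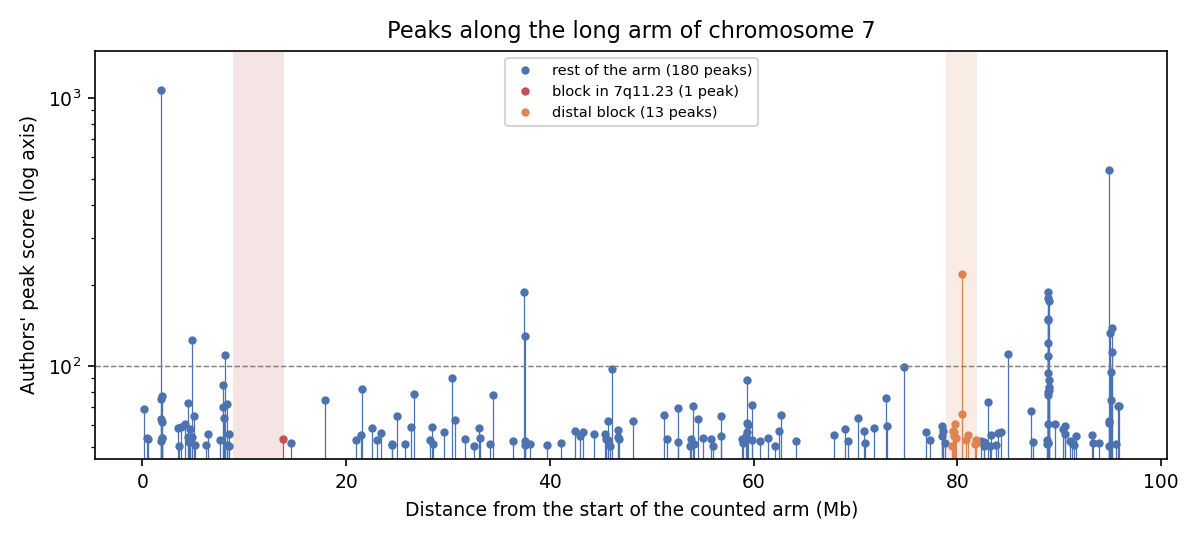
Each point is 1 of the 194 peaks, placed by the distance of its midpoint from the boundary of the arm (Mb) and by the authors' score (log axis). The shaded bands are the 2 duplicated blocks and the dashed line is a score of 100. Most points lie under 60, the 18 at 100 or more stand at a few places, and the first band holds 1 peak.

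Widths varied little. The median 7q peak was 646.5 bp wide (quartiles 582.8 and 785 bp), the narrowest was 471 bp and the widest 2341 bp. The median width was 690 bp on 7p, 713 bp on chromosome 20 and 838 bp in the whole list. Over 1 kb were 18 peaks (9.28%), against 39.4% of the whole list. The 194 peaks covered 140.6 kb, which is 0.147% of the 95.8 Mb between the boundary and the end of the last peak. Width rose with score among the 7q peaks, with a Spearman correlation of 0.54 across peaks, which are not independent. Outside the blocks, median widths were 618 bp at scores under 60, 760 bp from 60 to under 100 and 1098 bp from 100 up. Peaks under 60 on the 21 chromosomes other than 7, 20 and Y had a median width of 622 bp, close to that of the weak peaks of 7q. From 100 up, medians elsewhere were wider than on 7q, at 1779 bp on those chromosomes, 1497 bp on 7p and 1699.5 bp on chromosome 20.

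Counted peak by peak, the 2 duplicated blocks that were set apart had densities on opposite sides of that of the rest of the arm. Neither difference passed in every alternative count. The block in 7q11.23, from 72 to 77 Mb, held 1 peak in 5 Mb, at chr7:76924481-76925094, 614 bp wide and of score 53.5. The distal block, counted from position 142000000 to 145000000, held 13 peaks in 3 Mb. The remaining 87.8 Mb of the arm held 180 peaks, or 2.05 per Mb (exact Poisson 95% interval 1.76 to 2.37). All densities are peaks per Mb, and their intervals and tests cover counting error in 1 library only and treat peaks as independent.

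In the 7q11.23 block the density was 0.2 per Mb (0.00506 to 1.11), 0.0976 times that of the rest of the arm (95% interval 0.00246 to 0.551; two-sided exact binomial test, Benjamini-Hochberg adjusted p = 0.00104 over 5 comparisons). The empty stretch begins ahead of the block. Between 71595382 and 76924480 no peak lay over 5.33 Mb, the longest distance between neighbouring peaks on the arm. The empty stretch ended inside the block, at its 1 peak. Peaks stayed sparse past the block, with 2 from 77 to 82 Mb (0.4 per Mb). The 8.9 Mb on the centromere side, up to 72 Mb, held 34 peaks (3.82 per Mb). With the block widened by 1 Mb on each side, which takes in 8 peaks just ahead of the gap, the ratio was 0.73 and the difference no longer passed (adjusted p = 0.395, exact binomial test). A low count does not show that the factor is absent there, since the reads that could be placed in the block are unknown.

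In the distal block the density was 4.33 per Mb (2.31 to 7.41), 2.11 times that of the rest of the arm (1.10 to 3.71; two-sided exact binomial test, adjusted p = 0.0140). Of the 13 peaks, 10 scored under 60, and their density of 3.33 per Mb was 2.59 times that of the rest of the arm (1.21 to 4.94; exact binomial test, adjusted p = 0.0118 over 15 comparisons). From 60 to under 100 the ratio was 1.17 (0.138 to 4.46) and at 100 or more it was 1.72 (0.0412 to 11.0), with 2 peaks and 1 peak in the block, and neither passed. Whether the excess differed between score classes was not shown, since 3 of the 13 scored 60 or more against 67 of the 180 elsewhere (two-sided Fisher's exact test, adjusted p = 0.478). Of the 13, 1 scored 100 or more (7.69%, exact 95% interval 0.195 to 36.0%), as did 17 of the 180 elsewhere (9.44%, 5.60 to 14.7%; two-sided Fisher's exact test, adjusted p = 1). The strongest was a 2118 bp peak at chr7:143544753-143546870 with a score of 221, the highest on the arm but for 2 others. It lay 453 bp from a peak of score 66.3 at chr7:143543449-143544299. Next came 3 peaks of a group of 5 between 142717518 and 142934258, with scores of 60.6, 57.3 and 56.6. When each chain of neighbouring peaks was counted once, the ratio was 1.502 and did not pass (adjusted p = 0.306, exact binomial test). Without chains of 5 or more peaks it was 1.57 (adjusted p = 0.183, exact binomial test). Other stretches of the arm were as full, with 4.74 per Mb from the boundary to 65 Mb and 5.6 per Mb from 150 to 155 Mb. Of their 9 and 28 peaks, 3 and 10 lay outside chains of 5 or more, as did 8 of the 13 in the block.

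The highest scores of the arm lay outside both blocks. The top peak, a 1730 bp stretch at chr7:64953476-64955205, scored 1071 and ranked 220 in the whole list. Among the 410 peaks of the list within 20% of its width it ranked 10, where the median score was 193. It opened a chain of 8 peaks that ended at 65054555, a chain being a run of peaks at most 100 kb apart. The other 7 scored between 52.3 and 77.1, so that 1 peak stood far above its neighbours.

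The next peak, a 2341 bp stretch at chr7:157939251-157941591, scored 536 and was the widest of the arm. It ranked 35 among 314 peaks of like width. Only 6 bp separated it from a peak of score 61.5. From there to the end of the arm, 12 peaks had a median score of 72.6, and 4 of them scored 100 or more. A chain of 5 there, from 158129426 to 158309749, scored 132, 94.8, 74.5, 112 and 138. By general knowledge of hg19, the 536 peak and this chain fall within PTPRN2, a gene for a receptor-type tyrosine phosphatase of secretory vesicles. No annotation of that build was used here, so this and the other gene placements were not computed.

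The fullest part of the arm was a chain of 18 peaks from 151935953 to 152109704, which spanned 173.8 kb. It is the only run of 10 or more peaks on 7q. Its scores ran from 51.1 to 189 with a median of 85.9, and 7 of the 18 were 100 or more. The chain had a dense core. From 151957891 to 151988787, 12 peaks lay at most 5 kb apart over 30.9 kb and covered 39.2% of it. Within the core the scores, in order along the chromosome, were 60.6, 51.6, 79.7, 121, 78.01, 51.6, 179, 94.3, 109, 148, 189 and 149. Of the 6 that reached 100, 5 were among the last 6 peaks of the core. The remaining peaks of the chain were 2 ahead of the core, with scores of 52.7 and 51.1, and 4 that followed after an empty 86.2 kb, with scores of 88.7, 83.1, 81.5 and 174.

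**Figure D2:**
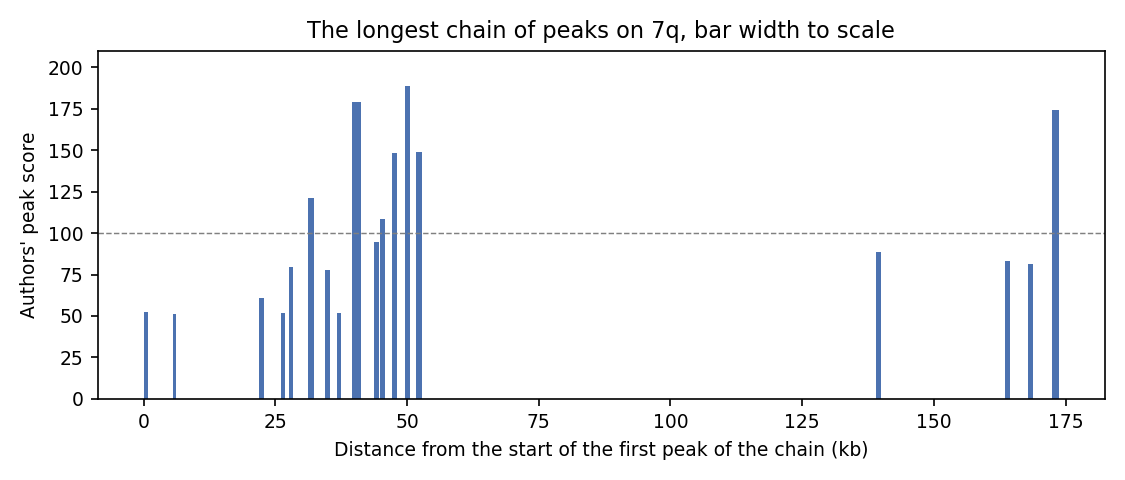
Each bar is 1 of the 18 peaks of the chain, drawn at its width, against the distance from the start of the first peak (kb), with the authors' score on the y axis. The dashed line is a score of 100. The 12 peaks of the dense core lie together, and 4 peaks follow beyond an empty stretch of 86.2 kb.

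By general knowledge of hg19, this chain lies within KMT2C, the gene for a histone H3 lysine methyltransferase that marks enhancers. KMT2C is known to have partial copies elsewhere in the genome. The RefSeq gene table of build GRCh38.p14, used for names only, lists 4 KMT2C pseudogenes, KMT2CP1 and KMT2CP3 on chromosome 1 and KMT2CP4 and KMT2CP5 on chromosome 2. Copies that carry other names would not be among these 4. Whether the peaks fall in the copied part was not tested.

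The third highest score of the rest of the arm, 189, belonged to a 792 bp peak at chr7:100550655-100551446. For its width it was high, ranking 16 among 1474 peaks of like width with a median score of 63.6. It headed a group of 4 peaks that ended at 100676401, in which the others scored 52.4, 130 and 50.5. By general knowledge of hg19, this is the cluster of the mucin genes MUC3A, MUC12 and MUC17, whose products line epithelia and whose coding sequences hold long tandem repeats. Close behind followed 2 peaks of the KMT2C chain, with scores of 189 and 179.

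The remaining peaks of 100 or more lay apart. They were at chr7:67956510-67957539 with a score of 125, at chr7:71254544-71255804 with a score of 110 and at chr7:148027884-148029206 with a score of 111. The last falls within CNTNAP2, a neurexin-family gene of neurons, by general knowledge of hg19. It had no other peak within 100 kb, and neither did the peak of score 110. In all, 11 of the 18 peaks of 100 or more belonged to the 4 chains of 5 or more peaks.

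Away from those chains, scores were lower and peaks narrower. The 4 chains, of 8, 5, 18 and 5 peaks, held 36 of the 194 peaks in 671.9 kb. The other 158 had a median score of 55.2 and a median width of 631.5 bp, and 7 of them (4.43%, exact 95% interval 1.80 to 8.92%) scored 100 or more. In the chains the share was 11 of 36 (30.6%, 16.3 to 48.1%), with a median score of 77.6 and a median width of 877.5 bp. Of all 7q peaks, 92 (47.4%) had no neighbour within 100 kb, and 70 of these scored under 60. Groups of 2 to 4 peaks numbered 28 and held 66 peaks. In 24 of the 28 groups no peak reached 100.

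The distance from one peak to the next had a median of 185 kb (exact 95% interval 140 to 266 kb; quartiles 56.2 and 671 kb) over 193 distances. It was over 1 Mb in 34 cases (17.6%) and at most 5 kb in 24 (12.4%), of which 17 lay inside the 4 chains. After the gap at 7q11.23, the longest distances were 3.76 Mb up to 131021178, 3.31 Mb up to 81043031, 3.04 Mb up to 114332342 and 2.99 Mb up to 84030991. Of the 5, 3 lay in the 12.4 Mb that begin with the 7q11.23 gap, where there were 3 peaks in all. On the short arm, taken as chromosome 7 below 58 Mb, the median distance was 61.5 kb (48.7 to 69.7 kb) and 0.948% of distances were over 1 Mb. On chromosome 20 these values were 50.1 kb (37.6 to 69.99 kb) and 4.73%. The interval of the 7q median lay above both.

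**Figure D3:**
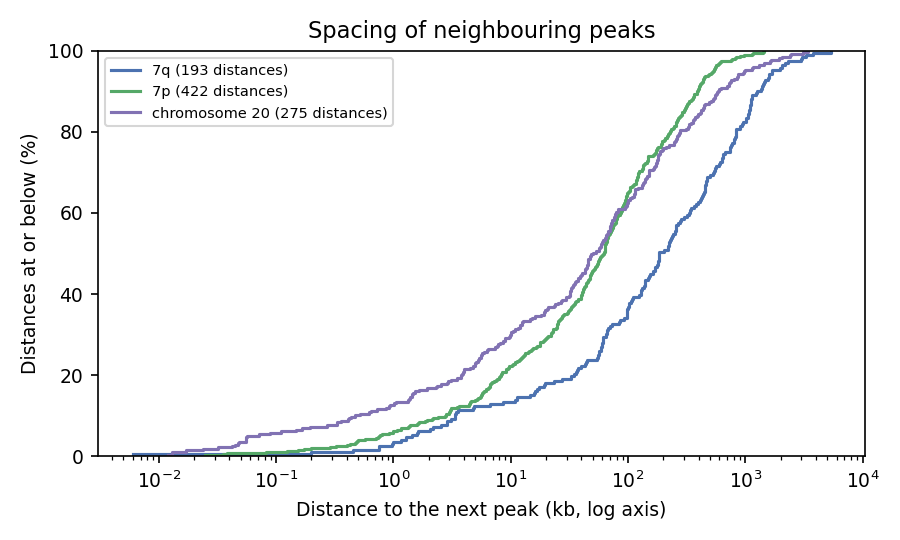
Share of distances between neighbouring peaks (%, y axis) at or below a given length (kb, log x axis) on 7q, on 7p and on chromosome 20. The 7q curve lies to the right of the other 2 from about 5 kb upward, with a median of 185 kb against 61.5 and 50.1 kb.

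Along the arm the density was highest toward its end. Among the 18 complete 5 Mb bins, counts ran from 2 (75 to 80 Mb) to 28 (150 to 155 Mb), with a median of 8. The bin that starts at 140 Mb held 19 and that from 65 to 70 Mb held 16. The fullest 1 Mb bins outside the blocks were 151 to 152 Mb with 14 peaks, 158 to 159 Mb with 9, 71 to 72 Mb and 122 to 123 Mb with 8 each and 67 to 68 Mb with 7. Of the 94 complete 1 Mb bins from 64 Mb on, 25 were empty.

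When the arm was divided into 3 equal parts of 31.9 Mb, the part nearest the centromere held 56 peaks (1.75 per Mb, 1.32 to 2.28), the middle part 55 (1.72, 1.30 to 2.24) and the distal part 83 (2.60, 2.07 to 3.22). Without the 4 chains the counts were 48, 55 and 55, or 1.502, 1.72 and 1.72 per Mb. Of the 18 peaks of 100 or more, 13 lay in the distal part, 3 in the part nearest the centromere and 2 in the middle. The variance of the counts over the 5 Mb bins was 4.54 times their mean, against 1 for independent peaks at an even rate. The counting intervals are therefore too narrow, and the p-values of the density tests too small. The ratio of variance to mean was 1.88 without the 4 chains and 2.55 without the chain in KMT2C alone. On 7p the same ratio was 13.7 and on chromosome 20 it was 20.6.

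**Figure D4:**
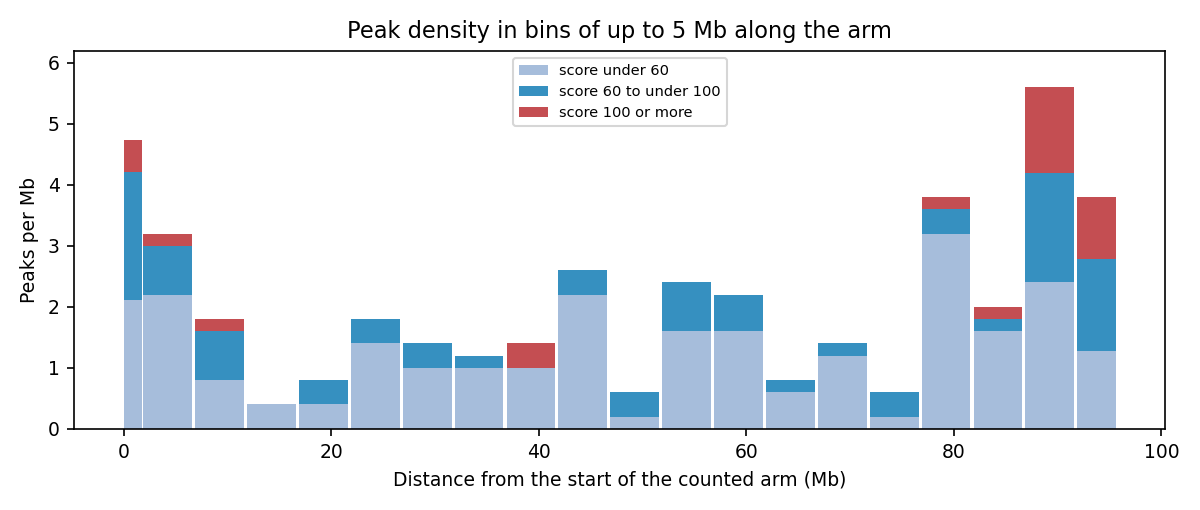
Peaks per Mb (y axis) in bins of up to 5 Mb along the arm, by distance from the boundary of the arm (Mb, x axis), stacked by score class. The first and last bins are shorter than 5 Mb. The bin with 28 peaks, or 5.6 per Mb, is the highest, and weak peaks under 60 make up most of the bars in the middle of the arm.

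Within the same list, 7q without its 2 blocks held fewer peaks per Mb than 7p or chromosome 20. It held more than the other chromosomes. The sets were not trimmed alike. The 7q set leaves out the 2 blocks and the 167 peaks from 58 Mb to the boundary. Chromosome 20 and the other chromosomes kept all their peaks, including any near centromeres or in duplicated regions. The same holds for the score classes and shares below. With no block set apart, the ratios to chromosome 20 and the other chromosomes were 0.456 and 1.88. That setting still leaves out the 167 peaks, and no ratio that includes them was computed. On 7p there were 423 peaks, or 7.29 per Mb, and the 7q density was 0.281 times that (0.235 to 0.335; exact binomial test, adjusted p = 1.36e-50). On chromosome 20 there were 276, or 4.44 per Mb, a ratio of 0.462 (0.381 to 0.559; exact binomial test, adjusted p = 7.34e-16). The 21 chromosomes other than 7, 20 and Y had 1.07 per Mb, a ratio of 1.91 (1.63 to 2.22; exact binomial test, adjusted p = 2.18e-14). Peaks on Y were left out of this group but are counted in all values given for the whole list. With each chain counted once, the ratio to 7p was 0.522 and that to the other chromosomes 4.78, and both passed. The ratio to chromosome 20 was then 0.805 and did not (0.612 to 1.06; exact binomial test, adjusted p = 0.144). Without chains of 5 or more in any set, the ratios were 0.464 to 7p, 0.738 to chromosome 20 and 5.68 to the other chromosomes. Each of these passed.

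Counted peak by peak, the direction against the other chromosomes depended on the score. Peaks under 60 were 4.40 times as dense on 7q without the blocks as on the other chromosomes (3.58 to 5.36), with 1.29 against 0.293 per Mb. From 60 to under 100 the ratio was 1.91 (1.41 to 2.55). Peaks of 100 or more were less dense, with 0.194 against 0.484 per Mb, a ratio of 0.40 (0.232 to 0.643; exact binomial test, adjusted p = 4.06e-05 over 15 comparisons). These were 17 and 1328 peaks. With peaks within 5 kb joined, 12 regions of 100 or more were left on 7q and 384 on the other chromosomes. Without chains of 5 or more, 6 and 129 peaks were left. The sets span 87.8 Mb on 7q and 2744 Mb on the other chromosomes. Per Mb, the joined counts are therefore nearly equal, and those without chains are higher on 7q. The lower density thus holds only for peaks counted one by one. No ratio or test was computed for the other counts. Against 7p the ratio was below 1 in every class, at 0.308 (0.244 to 0.387), 0.231 (0.164 to 0.321) and 0.295 (0.156 to 0.536) from the weakest class to the strongest. Against chromosome 20 it was 0.593 (0.458 to 0.767), 0.448 (0.308 to 0.647) and 0.194 (0.106 to 0.336).

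**Figure D5:**
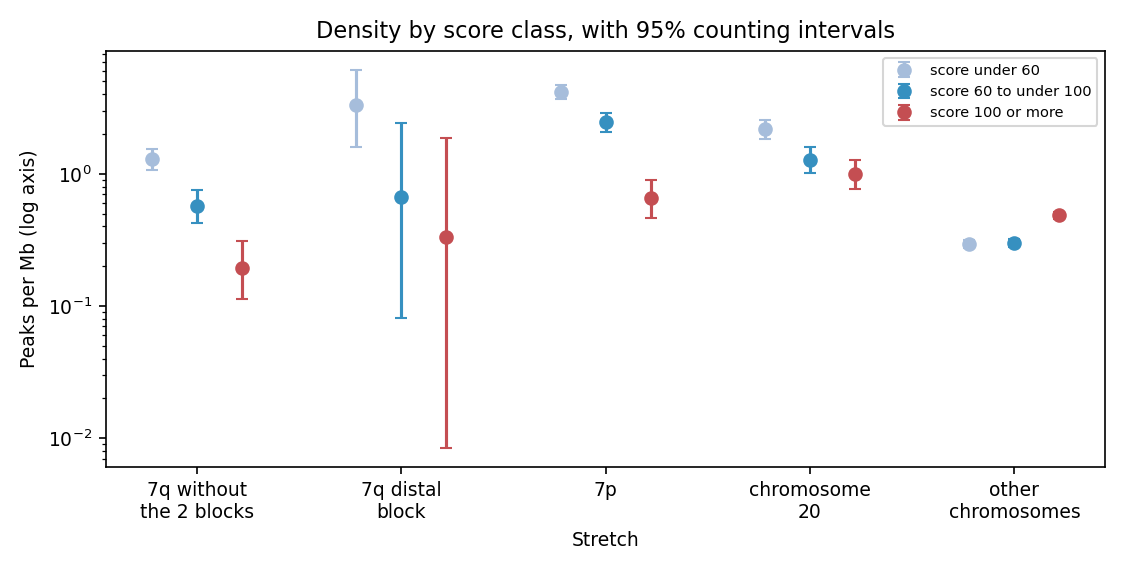
Peaks per Mb (log y axis) in 3 score classes for 7q without the 2 blocks, the distal 7q block, 7p, chromosome 20 and the other chromosomes except Y. Points are densities and bars are exact Poisson 95% intervals for counting error. On 7q without the blocks, the classes fall from 1.29 to 0.194 per Mb, whereas on the other chromosomes the class of 100 or more is the densest at 0.484.

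High scores were a smaller share of the peaks on 7q than on chromosome 20 or the other chromosomes, and no difference from 7p was detected. Scores of 100 or more made up 9.44% of the 180 peaks and 8.98% of the 7p peaks, a difference of 0.46 percentage points (two-sided Fisher's exact test, adjusted p = 1). The exact intervals of the 2 shares, 5.60 to 14.7% and 6.44 to 12.1%, leave room for a difference of several points in either direction. All intervals and tests of shares also treat the peaks of 1 library as independent, although high scores came in runs. On chromosome 20 the share was 22.5% (17.7 to 27.9%), which is 13.02 points more than on 7q (Fisher's exact test, adjusted p = 8.68e-04). When peaks within 5 kb were joined, the difference from chromosome 20 was 4.91 points and did not pass (Fisher's exact test, adjusted p = 0.425). On the other chromosomes the share was 45.05% (43.2 to 46.9%; Fisher's exact test, adjusted p = 1.70e-23). It was 30.6% against 7.64% on 7q with peaks within 5 kb joined (Fisher's exact test, adjusted p = 1.57e-10). Without chains of 5 or more it was 15.8% against 4.03% (Fisher's exact test, adjusted p = 1.59e-04). The difference from the other chromosomes thus kept its direction but was much smaller.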

How the data were processed

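ChIP-seq was done on 2 libraries of LN229 cells, 1 with tagged SOX4 and 1 with tagged GFP, and the 1 deposited file analysed is the SOX4 peak list. The submitters' processing notes name Bowtie 0.12.7, MACS and hg19. Not given in the sources used here are the version and settings of MACS, what was done with duplicate or repeated reads, and whether the GFP library served as control in the calling. The list deposited by the authors holds a chromosome, start, end, name and a score per peak, with no header. Depth is unknown. Starts are printed counted from 1.

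Peaks were assigned by midpoint. Chromosome lengths run to the end of the last peak, and unsequenced gaps are counted in them, which lowers the densities of chromosomes with large gaps. Density ratios have exact conditional binomial 95% intervals and tests, and shares have exact Clopper-Pearson intervals and Fisher's exact tests, two-sided, Benjamini-Hochberg adjusted over 5 comparisons, or over 15 where score classes were split. Distances run from the end of a peak to the start of the next. The counting was tested on simulated data. For the intervals, peaks were placed independently at an even rate within each stretch. That test therefore does not cover clustered counts like those of this list. The arm begins at 63.1 Mb, the 7q11.23 block was taken as 72 to 77 Mb and the distal block as 142 to 145 Mb. No annotation of duplications was used to place the blocks, so they can also hold single-copy sequence. Alternatives widened the blocks to 71 to 78 and 141 to 146 Mb, set no block apart, began the arm at 68 Mb, left out 97 to 103 Mb, joined peaks within 5 kb, counted chains once, cut on the score and changed bins and chain distances.

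The members, stretches, tests and lists were chosen with earlier results of these data known. Named peaks are the 10 with the highest score on the arm, the 5 highest in each stretch, the 5 longest distances, the 5 fullest 1 Mb bins outside the blocks and the end peaks. Other peaks, the chains of 5 or more, the windows around the blocks, the equal parts of the arm and gene placements were chosen after their values were seen. Planned counts of motifs, promoters and genes needed an hg19 sequence or annotation and were not run. Scripts ran in Python 3.11.15 with SciPy 1.17.1, NumPy 2.4.6, pandas 2.3.3 and, for plots, matplotlib 3.10.9.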

Additional observations from a re-analysis of the deposited data

How the results depend on the processing

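Leaving out chains of 5 or more peaks, or the longest 7q chain alone, was chosen after seeing the data. Alternatives for motifs and annotation were not run. When only peaks from the median score up were kept, and when only those of 100 or more were, the density of 7q without its blocks over the other chromosomes reversed, from 1.91 to 0.547 and 0.40. Each peak was counted separately there, and neither ratio was recomputed with close peaks joined or chains left out. At 100 or more, the counts per Mb were nearly equal with peaks within 5 kb joined. With chains of 5 or more left out, they were higher on 7q. Under the same 2 cuts the ratio of the 7q11.23 block to the rest of the arm was 0 and 0, and that of the distal block was 1.01 and 1.72, none past the threshold. Widening the blocks gave 0.73 for the 7q11.23 block. Counting each chain once gave 1.502 for the distal block and 0.805 against chromosome 20, and leaving out chains of 5 or more gave 1.57 for that block. The difference from chromosome 20 in the share of high scores was -4.91 points with peaks within 5 kb joined and -3.67 without chains of 5 or more, neither past the threshold. That from the other chromosomes went from -35.6 points to -23.0 and -11.7 in the same 2 settings, and both passed. The cause of these shifts was not tested. The ratio to 7p kept its direction and its side of the threshold in all 10 alternatives, from 0.239 to 0.522.

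Under the median cut and the cut at 100, the median width of 7q peaks was 1054 and 1156 bp, its correlation with score 0.62 and 0.34 (0.57 without the 2 blocks), and the median distance 111 and 120 kb. The variance over the mean of counts per bin was 3.03 in 2 Mb bins, 2.41 in 10 Mb bins, 5.65 and 3.88 under the 2 score cuts, 1.88 without chains of 5 or more and 2.55 without the longest 7q chain. No paired analysis was possible because each condition has 1 library. The unknown depth sets no limit of detection for stretches without a peak.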
